A study of Mus musculus with 2 samples.

Results

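The cells described here are the endothelial cells of mouse liver, picked out of 2 single-cell RNA sequencing libraries by the genes they carried. A barcode was kept when it held at least 1000 UMIs (unique molecular identifiers, 1 per captured RNA molecule), at least 400 genes and no more than 30% of its UMIs from mitochondrial mt- genes. A kept barcode counted as endothelial when the UMIs of Stab2, Ptprb, Btnl9, Ldb2 and Kdr summed to at least 3 and those of Clec4f, Vsig4, Cd5l, Skap1, Dcn, Reln and Ebf1, which mark Kupffer cells, lymphocytes, stellate cells and B cells, summed to at most 1. The members were thus chosen by their measured UMIs of these 12 genes, and the rule took 5904 of 42372 kept barcodes, namely 2431 of 20158 (12.1%, 95% Clopper-Pearson interval 11.6 to 12.5) in the WT library and 3473 of 22214 (15.6%, 15.2 to 16.1) in the N-LKO library.

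WT mice, labelled CTRL, served as controls, and N-LKO mice lacked NgBR (gene symbol Nus1) in hepatocytes, where an albumin promoter drives the Cre recombinase. The methods describe age-matched male mice on a C57BL6 background that ate a standard diet first, and both groups then received a Western diet for 16 weeks according to the treatment labels, although the sample titles speak of a high-fat diet. The WT library came from liver and the N-LKO library from liver together with tumor. Hepatocytes and nonparenchymal cells were isolated separately and mixed at set proportions, with tumor cells added for N-LKO only, so the mixing, the tumor tissue and the genotype cannot be told apart. The number of mice behind each library was not given in the sources used here, and with 1 library per group no difference has a replicate check, so levels are given with intervals that cover counting error only and no p-value is reported.

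Liver sinusoidal endothelial cells line the hepatic capillaries. They are perforated by fenestrae, lack a continuous basement membrane and clear waste macromolecules from blood through scavenger and Fc receptors. Along the sinusoid they differ by position, and endothelium near the central vein secretes Wnt ligands and R-spondin that maintain pericentral hepatocyte genes. In chronic liver injury they can lose fenestrae and gain features of ordinary vascular endothelium, a process called capillarization. Nus1 encodes a subunit of the enzyme that makes dolichol, the lipid carrier of sugars for N-linked glycosylation.

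The label held for genes that the rule did not use, though not each of them set the members apart from other classes. All 25 pan-endothelial genes of the list used here were above the level of 3 UMIs in both libraries, their summed level was 5540 CPM in the WT and 4722 CPM in the N-LKO members, and Pecam1, an adhesion molecule of endothelial junctions, stood at 230 CPM in the WT members against 274 CPM in those of N-LKO (log2 ratio 0.25, 0.13 to 0.38). CPM here are the summed UMIs of a gene over the member barcodes of a library, scaled to a total of 1000000, and each bracket gives the log2 ratio of N-LKO over WT with its 95% interval. When every barcode was thinned to 1000 UMIs, Pecam1 was detected in 21.7% and 25.1% of WT and N-LKO members, against 4.88% and 3.96% of barcodes marked by the Kupffer genes. Cdh5, another gene of the list, separated the classes less. It was detected in 20.8% and 19.8% of WT and N-LKO members, against 19.8% and 11.1% of Kupffer-marked barcodes. The lymphatic markers Pdpn and Ccl21a were at 0 UMIs in WT and 5 UMIs each in N-LKO members.

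Members held a median of 1245 UMIs in WT and 1383 UMIs in N-LKO, from library totals of 85522287 and 87575064 UMIs. The median share of mt- UMIs was 13.5% in WT and 17.6% in N-LKO members, and the ribosomal-RNA-like transcript Gm42418 stood at 26655 and 50822 CPM. Barcodes just outside the rule, with a marker sum of exactly 2, numbered 699 in WT and 919 in N-LKO with Pecam1 at 62.9 and 136 CPM, and those just inside, with a sum of exactly 3, numbered 392 and 724 with Pecam1 at 135 and 213 CPM. No member barcode sequence occurred as a member in both libraries. Scrublet scores of at least 0.25 marked 278 WT (11.4%) and 373 N-LKO (10.7%) members as possible doublets.

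RNA of other cell types was present in members and differed between the libraries. The 20 hepatocyte markers summed to 44171 CPM in the WT and 21878 CPM in the N-LKO members. The profile of barcodes under 500 UMIs was taken as free RNA and scaled on these same markers. It put the share of free RNA at 62.1% of member UMIs in WT and 47.9% in N-LKO. On that estimate, levels and detection shares below mix the members' own RNA with a background that differs between the libraries. The low barcodes numbered 18526 with 8165016 UMIs in WT and 13674 with 6098603 UMIs in N-LKO. Whether they were empty droplets or small cells was not tested. Leaving out the 7 genes that the rule capped, Kupffer and macrophage markers summed to 464 CPM in the WT and 1103 CPM in the N-LKO members, all 7 tested being higher by at least 1.5-fold against 16.6% of all genes. B and plasma cell markers stood at 251 and 1264 CPM, neutrophil markers at 313 and 506 CPM, and cholangiocyte markers at 136 and 281 CPM, whereas stellate markers were at 115 and 126 CPM. The rule limits how far such RNA can reach, since barcodes rich in the capped genes were not taken. Over a set of 29 genes of macrophages, neutrophils, lymphocytes, dendritic cells and cholangiocytes, 439 WT (18.1%) and 1464 N-LKO members (42.2%) held more than 1 UMI. Without them 1992 WT and 2009 N-LKO members with at most 1 such UMI remained, 9.88% and 9.04% of kept barcodes, so that the order of the endothelial shares turned. They are called members poor in other-cell RNA below, and 487 WT and 798 N-LKO of them still held 1 such UMI. Hepatocyte genes were not part of this set. Values from these members, an alternative chosen after seeing the data, are given below beside the results they touch, and the part of other cell types in the results was not tested beyond that.

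The 5 marker genes of the rule are given as a description only, since they chose the members. Stab2, the hyaluronan scavenger receptor of sinusoidal endothelium, was detected in 75.4% of WT and 71.5% of N-LKO members. Ptprb, the vascular endothelial receptor phosphatase, stood at 2113 and 1430.4 CPM (−0.56, −0.61 to −0.52), the first value of each pair being WT and the second N-LKO. The VEGF receptor gene Kdr was at 688 and 390.2 CPM (−0.82, −0.90 to −0.73) and the transcriptional cofactor gene Ldb2 at 536 and 688 CPM (0.36, 0.28 to 0.44). Nus1 itself (chr10:52417547-52440183, plus strand, GRCm38), which the albumin-Cre deletion does not target in these cells, was at 92.1 CPM in the WT members against 89.4 CPM in those of N-LKO (log2 ratio −0.04, −0.25 to 0.17), an interval that spans equal levels.

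Genes were compared when their mean level over both libraries was at least 10 CPM, and called higher or lower in N-LKO when the ratio was at least 1.5-fold and its interval excluded equality. A gene under 10 CPM in 1 library could reach that mean only through the other, so the filter itself set its direction. Among list genes below this holds for Cd34, Vcan, Cxcl1 and Angptl4, for example, and their direction is a description only. Of 9270 genes tested, 1541 (16.6%) were higher and 1273 (13.7%) lower, 2814 (30.4%) in all, around a median log2 ratio of 0.08. Centred on that median, 1245 genes (13.4%) were higher and 1504 (16.2%) lower, so which side held more calls rests on the scaling. The ratios followed the genomic span of the gene, from a median of −0.29 in the shortest of 5 equal bins (median span 5.42 kb) to 0.40 in the longest (145 kb). Counts for each gene list below are to be read against these shares. Within a list, genes beyond the 3 most extreme in either direction were chosen after their values were seen.

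Sinusoidal identity genes were split, with the lower side led by Ehd3 and Dnase1l3 and the higher side by Lyve1. 3 of the 25 genes tested were higher and 7 lower in N-LKO, with a median log2 ratio of −0.34. Ehd3, which encodes a membrane-recycling ATPase of endosomes, stood at 791 CPM in the WT members against 227 CPM in those of N-LKO (log2 ratio −1.80, −1.90 to −1.71). At 1000 UMIs per barcode it was found in 51.4% and 20.6% of WT and N-LKO members and in 4.17% and 1.75% of Kupffer-marked barcodes, and its free-RNA level was estimated at 27.9 and 18.6 CPM. Dnase1l3, a secreted nuclease that digests chromatin, was at 596 and 290 CPM (−1.04, −1.13 to −0.94). The lectin gene Clec4g, known as LSECtin, was at 488 and 282 CPM (−0.79, −0.89 to −0.69). Oit3, a zona pellucida domain gene used as a sinusoidal marker, was at 207 and 126 CPM (−0.71, −0.87 to −0.56), and the inhibitory Fc receptor gene Fcgr2b, which clears immune complexes, at 594 and 393 CPM (−0.60, −0.69 to −0.51).

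Other scavenger receptors of the same list stayed inside the 1.5-fold limit. Stab1, the scavenger receptor related to Stab2, was at 201 and 188 CPM (−0.10, −0.24 to 0.04) and the mannose receptor gene Mrc1 at 736 and 582 CPM (−0.34, −0.41 to −0.26). On the higher side stood 3 genes. Lyve1, a hyaluronan receptor of sinusoidal and lymphatic endothelium, was at 153 and 261 CPM (0.77, 0.63 to 0.92), and its detection at equal depth was 13.2% and 22.7%. Colec12, a scavenger collectin, was at 52.2 and 86.3 CPM (0.72, 0.47 to 0.98), and the HDL receptor gene Scarb1 at 42.3 and 66.6 CPM (0.65, 0.37 to 0.94). The members poor in other-cell RNA gave the same split for the leading genes, with Ehd3 at 827 and 257 CPM (−1.69), Dnase1l3 at 630.1 and 325 CPM (−0.96) and Lyve1 at 167 and 297 CPM (0.83). The Lyve1 ratio turned to −0.23 when mt- UMIs were limited to 10%, a limit that left 581 WT and 339 N-LKO members.

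Among pan-endothelial genes, 0 of the 25 tested were higher and 4 lower in N-LKO, with a median log2 ratio of −0.15. Clec14a, a C-type lectin of endothelial junctions, stood at 256 and 125 CPM (−1.04, −1.18 to −0.89), and the tight junction gene Cldn5 at 103 and 61.3 CPM (−0.74, −0.96 to −0.52). Adgrl4, an adhesion G protein-coupled receptor, was at 649.6 and 414 CPM (−0.65, −0.74 to −0.57), and the TGF-beta coreceptor gene Eng at 337 and 219 CPM (−0.62, −0.74 to −0.50). The remaining 21, among them Cdh5 at 229.8 and 219 CPM (−0.07, −0.20 to 0.06) and the transcription factor gene Erg at 98.8 and 104 CPM (0.08, −0.12 to 0.28), lay within the limit. Counting more deeply sequenced barcodes only, of at least 2000 UMIs (229 WT and 591 N-LKO), moved the median of this list to 0.27.

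Genes of vascular endothelium and capillarization stood mostly on the other side. 7 of the 18 genes tested were higher and 1 lower in N-LKO, with a median log2 ratio of 0.34. The interval of this median over the genes ran from −0.06 to 0.95 and so spanned 0. The shift was not particular to the members, since these genes had medians of 0.95 in Kupffer-marked barcodes and 0.72 in all kept barcodes outside the rule. Esm1, which encodes the secreted proteoglycan endocan, was at 30.3 CPM in the WT members against 121 CPM in those of N-LKO (log2 ratio 1.99, 1.69 to 2.31). The endothelin B receptor gene Ednrb was at 54.8 and 167 CPM (1.61, 1.38 to 1.85), the sialomucin gene Cd34 at 8.46 and 27.6 CPM (1.69, 1.13 to 2.33) and Vwf, the platelet-binding von Willebrand factor of larger vessels, at 15.2 and 43.2 CPM (1.5, 1.07 to 1.97). These 4 genes thus stood between 2.83 times (Vwf) and 3.97 times (Esm1) their WT level in N-LKO. Mcam, Itga6 and Cd9, which encode an adhesion molecule, an integrin chain and a tetraspanin, were higher too, at log2 ratios of 0.95, 0.92 and 0.86. Plvap, the diaphragm protein of fenestrae and caveolae, was at 35.3 and 44.4 CPM (0.33, 0.01 to 0.66), an interval above 0 but a ratio under 1.5-fold. In members poor in other-cell RNA, Esm1 stood at 32.4 and 133 CPM (2.03), Ednrb at 58.2 and 190.4 CPM (1.71), Cd34 at 8.47 and 32.9 CPM (1.93) and Vwf at 12.2 and 40.0 CPM (1.70). Subtracting the free-RNA profile, which lowers the log2 ratio of any gene without free RNA by 0.46, took the list median to −0.17, so the direction of the list as a whole rests on the scaling while Esm1, Ednrb and Vwf kept theirs.

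**Figure D1:**
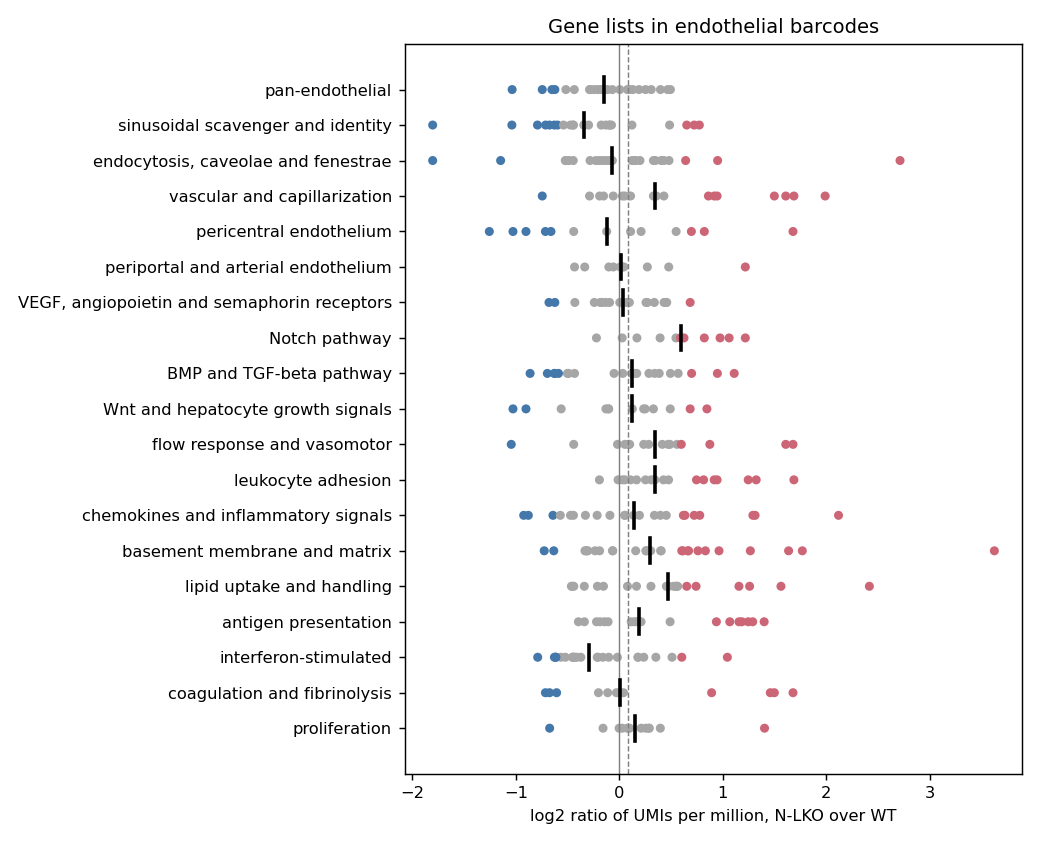
Log2 ratio of N-LKO over WT in endothelial members for each tested gene of 19 gene lists (horizontal axis), 1 dot a gene, red when higher and blue when lower by the 1.5-fold call and grey otherwise, with a black bar at the list's median and a dashed line at 0.08, the median of all genes tested. Sinusoidal genes spread to the left as far as Ehd3 at −1.80, while vascular, lipid and matrix genes reach further to the right.

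The promoters of Clec4g and Esm1 are shown because Clec4g is among the 3 lowest ratios of the sinusoidal list, Esm1 is the highest of the vascular list, and the RefSeq and GENCODE starts of both coincide. Each sequence is the 250 bases before the RefSeq start in GRCm38.p6, printed on the strand of the gene, Clec4g at chr8:3720652-3720901 (minus strand) and Esm1 at chr13:113209409-113209658 (plus strand). Capitals mark GGAA and its reverse complement TTCC, the core that ETS family factors such as Erg and Fli1 bind in endothelial genes.
Clec4g: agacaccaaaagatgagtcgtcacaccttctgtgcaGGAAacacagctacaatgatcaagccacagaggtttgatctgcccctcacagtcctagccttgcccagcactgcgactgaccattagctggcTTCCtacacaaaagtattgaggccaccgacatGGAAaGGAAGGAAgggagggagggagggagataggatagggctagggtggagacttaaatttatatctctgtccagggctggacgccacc
Esm1: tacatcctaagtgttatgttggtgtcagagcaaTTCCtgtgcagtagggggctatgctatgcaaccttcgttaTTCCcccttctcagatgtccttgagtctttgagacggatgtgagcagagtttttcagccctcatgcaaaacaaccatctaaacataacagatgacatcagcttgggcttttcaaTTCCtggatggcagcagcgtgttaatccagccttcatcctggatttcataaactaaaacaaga
The Clec4g window held 5 matches and the Esm1 window 3. Of 27025 promoter windows of the same kind 93.37% held the motif, with a median of 3 matches, so its presence sets neither promoter apart. Erg and Fli1, the ETS factors named above, were at 98.8 and 104 CPM and 234 and 324 CPM in WT and N-LKO members, both within the 1.5-fold limit.

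Position along the sinusoid was read from summed UMIs of 6 pericentral genes (Wnt2, Wnt9b, Rspo3, Kit, Cdh13 and Dkk3) and 7 periportal genes (Dll4, Efnb2, Ltbp4, Ntn4, Adam23, Gja5 and Jag1), with at least 2 UMIs of 1 set and under 2 of the other. Pericentral-marked barcodes were 322 of 2431 WT members (13.2%, 11.9 to 14.7) and 229 of 3473 N-LKO members (6.59%, 5.79 to 7.47). The share in N-LKO was lower at equal depth too, with 11.3% in WT and 4.87% in N-LKO after thinning, and in members poor in other-cell RNA, at 13.2% and 5.72%. Periportal-marked barcodes were 927 WT (38.1%) and 1457 N-LKO members (42.0%), but after thinning the shares were 31.1% and 30.5%. Since the pericentral genes themselves differed between libraries, these shares describe barcodes with such UMIs and not the number of cells at each position.

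**Figure D2:**
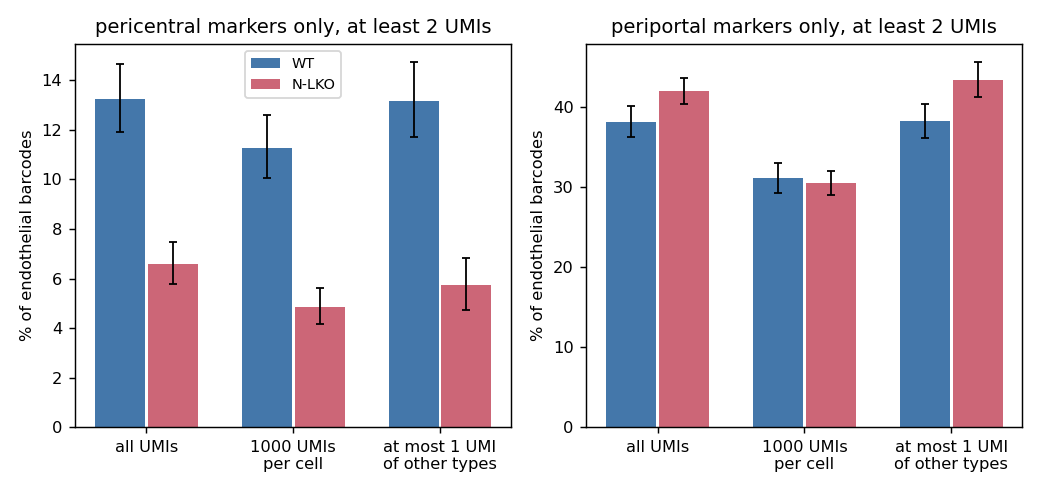
Share of endothelial members (percent, vertical axis) marked as pericentral only or periportal only in WT and N-LKO, using all UMIs, UMIs thinned to 1000 per barcode, and members poor in other-cell RNA (at most 1 UMI of the 29 genes), with exact binomial intervals. The pericentral share is lower in N-LKO in all 3 settings, 6.59% against 13.2% with all UMIs, while the periportal shares are 30.5% and 31.1% after thinning.

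Pericentral genes were divided, with Wnt2 and Rspo3 on the lower and Thbd on the higher side. Of 13 tested, 3 were higher and 5 lower, with a median log2 ratio of −0.12. Cdh13, the gene of the membrane-anchored T-cadherin, was at 237 CPM in the WT members against 99.1 CPM in those of N-LKO (log2 ratio −1.26, −1.42 to −1.10). Wnt2, a ligand that pericentral endothelium supplies to hepatocytes, was at 93.6 and 45.9 CPM (−1.03, −1.27 to −0.79), and Rspo3, the R-spondin that amplifies Wnt signals, at 171 and 91.4 CPM (−0.90, −1.08 to −0.73). Gas6, a ligand of TAM receptors, was at 52.2 and 31.8 CPM (−0.71, −1.02 to −0.40) and the stem cell factor receptor gene Kit at 98.8 and 62.5 CPM (−0.66, −0.88 to −0.44). Going the other way, Thbd, which encodes the anticoagulant thrombin receptor thrombomodulin, was at 27.7 and 89.0 CPM (1.68, 1.36 to 2.02). Pcdh7 and Lfng, a protocadherin gene and a Notch-modifying glycosyltransferase gene, were at log2 ratios of 0.70 and 0.82 from low levels, and Pcdh7 turned to −0.051 in members without a Stab2 UMI and to −0.21 after free-RNA subtraction. In members poor in other-cell RNA, Wnt2 was at 98.3 and 49.8 CPM (−0.98), Rspo3 at 168 and 84.7 CPM (−0.99) and Thbd at 27.6 and 97.2 CPM (1.81).

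Of 12 periportal and arterial genes tested, 1 was higher and 0 lower, around a median log2 ratio of 0.02. This was Jag1, a Notch ligand, at 18.4 and 43.0 CPM (1.22, 0.82 to 1.65). Dll4, the other endothelial Notch ligand of the list, was at 30.6 and 31.3 CPM (0.03, −0.33 to 0.40), Efnb2, the arterial ephrin gene, at 81.3 and 75.9 CPM (−0.10, −0.32 to 0.12), and Ntn4, a netrin gene, at 329 and 261 CPM (−0.33, −0.45 to −0.22). The periportal set thus stood near equality where the pericentral set was divided.

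Of the leading differences, those of Ehd3, Cyp26b1, Thbd, Esm1 and Vwf are given for both positions. Not all named genes were clear at both. In pericentral-marked barcodes Slc7a11 had a log2 ratio of 1.37 (−0.64 to 4.07), and Iglc1 had 0 UMIs in WT and 1 in N-LKO. Ehd3 stood at 904 and 201 CPM (−2.16, −2.55 to −1.81) in pericentral-marked barcodes and at 888 and 273 CPM (−1.70, −1.84 to −1.56) in periportal-marked ones. Cyp26b1, a retinoic acid degrading P450, was at 448 and 125 CPM (−1.83, −2.34 to −1.38) and 369 and 87.1 CPM (−2.08, −2.33 to −1.84). Thbd was higher at both positions, at 67.6 and 211 CPM (1.63, 1.02 to 2.30) and 18.4 and 80.3 CPM (2.10, 1.51 to 2.81). For Esm1, which led the periportal side in both libraries, periportal-marked barcodes gave 40.6 and 140.3 CPM (1.78, 1.37 to 2.24), and pericentral-marked ones 2.25 and 32.5 CPM (3.33, 1.09 to 9.27) with a single UMI in WT. Vwf was at 60.8 and 152 CPM (1.31, 0.63 to 2.04) in pericentral-marked and 8.42 and 38.6 CPM (2.14, 1.29 to 3.25) in periportal-marked barcodes. Ehd3, Cyp26b1, Thbd, Esm1 and Vwf each thus had the same direction at both positions.

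Edn1 and Fabp4 had unequal ratios at the 2 positions, a difference that was not tested. Edn1, the vasoconstrictor endothelin 1, was at 153 and 78.6 CPM (−0.95, −1.64 to −0.32) in pericentral-marked barcodes, but at 17.6 and 18.0 CPM (0.02, −0.73 to 0.83) in periportal-marked ones. Fabp4, a fatty acid binding protein gene of capillary endothelium, was at 1149 and 819 CPM (−0.49, −0.70 to −0.28) in pericentral-marked and at 432 and 798 CPM (0.88, 0.75 to 1.02) in periportal-marked barcodes with opposite signs. Both were chosen after their values were seen.

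Among genes that the zone rule did not use, those picked for leading the pericentral side in both libraries were Bmp4, Fmo2, Lhx6, Pcdh9, Plppr5, Egfem1, Sdk1, Ctnnal1, Edn1 and Rbms3, and those picked for leading the periportal side were Ighg2c, Esm1, Adgrg6, Efnb1, Vegfc, Kcnip4, Galnt15, Hmcn1, Igfbp5 and Lama4. Of these, Ighg2c is an immunoglobulin gene of plasma cells. Pcdh9, a protocadherin gene, was at 94.6 and 339 CPM (1.83, 1.33 to 2.38) in pericentral-marked barcodes and at 1.53 and 38.6 CPM (4.34, 2.76 to 7.72) in periportal-marked ones. Fmo2, a flavin monooxygenase gene, was at 40.6 and 182 CPM (2.13, 1.39 to 3.00) and Sdk1, a sidekick adhesion gene, at 51.8 and 247 CPM (2.23, 1.58 to 2.98) in pericentral-marked barcodes.

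Members without a Stab2 UMI numbered 598 in WT and 991 in N-LKO. The genes leading these barcodes in both libraries included Vwf, Adgrg6, Dnm3, Edn1, Thsd7a, Nuak1, Igfbp5 and Mecom, and those leading the Stab2-detected barcodes included Id4, Fscn1, Chst2, Cyp4b1, Gja1, Bmp2, Clec1b and Shisa9. Vwf was at 4.25 CPM with and 48.8 CPM without a Stab2 UMI in WT, and at 23.2 CPM with and 94.0 CPM without in N-LKO. Vwf was therefore higher in N-LKO in both kinds of barcode, and within each library it was higher where Stab2 was not detected.

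Among the secreted signals to hepatocytes, 2 genes were higher and 2 lower of 13 tested in the Wnt and growth factor list, whose median log2 ratio was 0.13. Beside Wnt2 and Rspo3, given above, Hgf, the hepatocyte growth factor gene, was at 92.4 and 166 CPM (0.85, 0.66 to 1.04) and Angpt2, an angiopoietin that antagonises the Tie2 receptor, at 17.2 and 27.8 CPM (0.68, 0.25 to 1.15). Angpt2 lost its direction in small subsets, at −0.21 with mt- UMIs limited to 10% and −0.28 in members without a Stab2 UMI. In the stellate-marked barcodes, 182 in WT and 181 in N-LKO, Hgf went the other way, at 846 and 548 CPM.

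In the BMP and TGF-beta list, the lower genes were led by Id2, Smad7 and Bmp2 and the higher genes by the receptor gene Tgfbr1. 3 of the 21 genes tested were higher and 5 lower in N-LKO, with a median log2 ratio of 0.12. Bmp2, the endothelial ligand that controls hepcidin in hepatocytes, was at 461 and 298 CPM (−0.63, −0.73 to −0.53). Id2, an inhibitor of basic helix-loop-helix factors and a BMP target, was at 285 and 157 CPM (−0.86, −1.0 to −0.73), and the inhibitory Smad genes Smad7 and Smad6 were at 95 and 58.7 CPM (−0.70, −0.92 to −0.47) and 109.9 and 73.1 CPM (−0.59, −0.79 to −0.38). On the higher side, Tgfbr1 was at 75.5 and 163 CPM (1.11, 0.91 to 1.32), Bmper, which binds BMP ligands outside the cell, at 23.0 and 44.6 CPM (0.95, 0.58 to 1.34), and the ligand gene Tgfb1 at 58.6 and 95.3 CPM (0.70, 0.46 to 0.94). Among members poor in other-cell RNA the list gave 2 higher and 3 lower of 20, with a median of 0.17.

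Notch pathway genes were higher or within the limit. 6 of the 11 genes tested were higher and 0 lower in N-LKO, with a median log2 ratio of 0.59. The shift was not particular to the members, since these genes had a median of 0.84 in all kept barcodes outside the rule. Their medians were 0.33 in Kupffer-marked, 1.22 in Skap1-marked and −0.02 in stellate-marked barcodes. After Jag1, the highest ratios were those of Nrarp, a feedback inhibitor that Notch induces, at 7.87 and 16.6 CPM (1.06, 0.45 to 1.76), and Notch2 at 30.9 and 60.9 CPM (0.97, 0.66 to 1.31). Lfng, Notch4 and Rbpj, the DNA-binding partner of the Notch intracellular domain, followed at 0.82, 0.63 and 0.59. The target gene Hes1 did not follow, at 127 and 109 CPM (−0.22, −0.40 to −0.04). The members poor in other-cell RNA gave 4 higher and 0 lower of 10, with a median of 0.53.

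Of 18 genes of VEGF, angiopoietin and semaphorin receptors and ligands, 1 was higher and 2 lower, with a median log2 ratio of 0.03. Nrp1, a coreceptor of VEGF and semaphorins, was at 669 and 417 CPM (−0.68, −0.76 to −0.60). Flt1, a decoy receptor of VEGF, was at 292 and 257 CPM (−0.18, −0.30 to −0.07), and Tek, the Tie2 receptor gene, at 248 and 221 CPM (−0.17, −0.30 to −0.04). The list as a whole stood close to the median of all genes.

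Genes of flow response and vessel tone were split between Edn1 on the lower side, at 42.3 and 20.5 CPM (−1.04, −1.41 to −0.68), and 4 on the higher side. 4 of the 16 genes tested were higher and 1 lower in N-LKO, with a median log2 ratio of 0.35. Beside Thbd and Ednrb these were Hmox1, heme oxygenase 1, at 30.6 and 56.3 CPM (0.87, 0.56 to 1.21) and the phosphodiesterase gene Pde4d at 224 and 339.7 CPM (0.60, 0.48 to 0.72). Klf2, a factor induced by laminar flow, was at 121 and 161 CPM (0.42, 0.25 to 0.59) and Nos3, endothelial nitric oxide synthase, at 30.9 and 43.0 CPM (0.47, 0.14 to 0.82), both under the limit. The median of the list turned to −0.14 after free-RNA subtraction.

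In coagulation and fibrinolysis, 4 genes were higher and 3 lower of 13 tested, around a median log2 ratio of 0.01. F8, coagulation factor VIII, for which sinusoidal endothelium is a main source, was at 725 and 454 CPM (−0.67, −0.76 to −0.59), in contrast to its carrier Vwf. Plaur, the urokinase receptor gene, was at 9.33 and 26.0 CPM (1.46, 0.91 to 2.08), and the annexin gene Anxa2 at 0.89 on the log2 scale. Plaur in members poor in other-cell RNA stood at 4.42 and 11.9 CPM (1.39).

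Leukocyte adhesion genes were higher in 7 and lower in 0 of 19 tested, with a median log2 ratio of 0.34. The same genes had medians of 0.49 in Kupffer-marked barcodes and 0.95 in all kept barcodes outside the rule. Cd44, a hyaluronan receptor that is also abundant on leukocytes, was at 62.7 and 157 CPM (1.32, 1.11 to 1.55), and Alcam, an immunoglobulin superfamily adhesion molecule, at 178 and 423 CPM (1.25, 1.12 to 1.38). The inducible receptors of leukocyte arrest were nearer to equality, with Icam1 at 32.4 and 41.1 CPM (0.34, 0.01 to 0.69) and Vcam1 at 73.8 and 99.3 CPM (0.43, 0.21 to 0.65). Members poor in other-cell RNA gave 7 higher and 0 lower of 19, with a median of 0.34, with Alcam at 146 and 364 CPM (1.32) and Cd44 at 32.8 and 67.4 CPM (1.04). The median turned to −0.24 after free-RNA subtraction.

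Of 23 chemokine and inflammatory genes, 7 were higher and 3 lower, with a median log2 ratio of 0.14. Il1r1, the interleukin 1 receptor gene, was at 96.2 CPM in the WT members against 239 CPM in those of N-LKO (log2 ratio 1.31, 1.14 to 1.49) and at 103 and 268 CPM (1.38) in members poor in other-cell RNA. Cxcl2, a neutrophil chemokine gene that macrophages also make, was at 15.2 and 66.4 CPM (2.12, 1.71 to 2.58), but at only 3.68 and 20.7 CPM (2.43) in those members. Cxcl1 was at 7.29 and 18.1 CPM (1.29, 0.67 to 2.01). On the lower side were Ccl5, a chemokine gene of T and NK cells, at 400.3 and 211 CPM (−0.92, −1.04 to −0.81), Cxcl12, a stromal chemokine gene, at 52.5 and 28.5 CPM (−0.88, −1.20 to −0.56), and the scavenging receptor gene Ackr2 at 12.8 and 8.23 CPM (−0.64, −1.27 to −0.01). The Cxcl12 ratio turned to 2.84 after free-RNA subtraction, its free-RNA level being estimated at 53.5 and 18.6 CPM. In WT this was above its measured level, so the subtracted sum was set to 3 UMIs and 2.84 gives no ratio of levels.

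**Figure D3:**
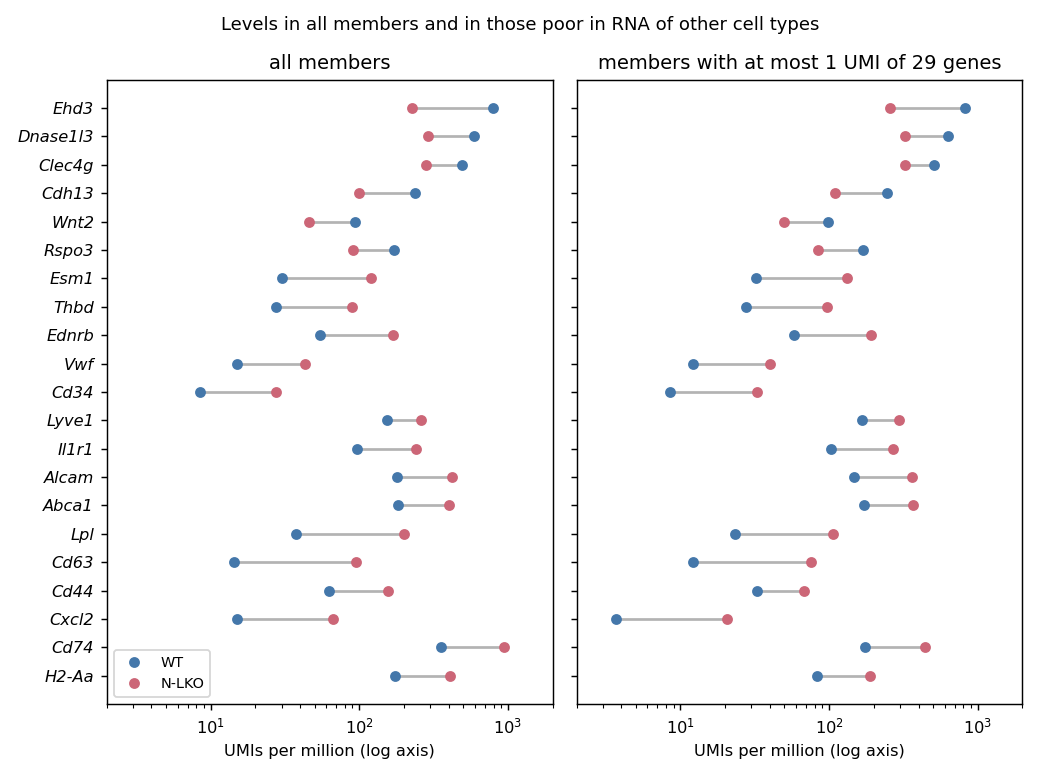
Levels in CPM (logarithmic axis) of 21 genes in WT and N-LKO members, for all members and for members with at most 1 UMI of the 29 genes of other cell types. Leaving members out lowers Cd74, Lpl, Cxcl2 and Cd44 in both libraries, while Ehd3 stands at 827 and 257 CPM (−1.69) and Esm1 at 32.4 and 133 CPM (2.03) in the remaining members.

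Basement membrane and matrix genes held 11 higher and 2 lower members of 28 tested, with a median log2 ratio of 0.29. The interval of this median over the genes, −0.07 to 0.66, spanned 0. Kupffer-marked barcodes gave a median of 1.15 for these genes and all kept barcodes outside the rule 0.55. Itgb3, the beta 3 integrin chain, was at 14.0 and 48.1 CPM (1.77, 1.33 to 2.26), and Col4a3, a collagen IV chain, at 6.41 and 20.3 CPM (1.64, 0.99 to 2.39). Vcan, the proteoglycan versican, which monocytes also express, was at 2.04 and 26.9 CPM (3.62, 2.64 to 5.06), with 7 UMIs in WT, and at 0.368 and 4.74 CPM (3.15, 0.97 to 9.09) in members poor in other-cell RNA. The main endothelial collagen IV chains were closer to equality, Col4a1 at 194 and 240.1 CPM (0.30, 0.17 to 0.44) and Col4a2 at 107 and 163 CPM (0.60, 0.43 to 0.78). Fn1, fibronectin, was at 184 and 312 CPM (0.76, 0.63 to 0.90). The lower pair was Bgn, the small proteoglycan biglycan, at 138 and 83.7 CPM (−0.73, −0.91 to −0.54), and Pxdn, which crosslinks collagen IV, at 51.9 and 33.5 CPM (−0.63, −0.94 to −0.33). Among members poor in other-cell RNA this list gave 9 higher and 0 lower of 26, with a median of 0.40, and free-RNA subtraction took its median to −0.18.

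Lipid uptake and handling genes were higher in 6 and lower in 0 of 22 tested, and their median log2 ratio of 0.47 stayed above 0 under free-RNA subtraction too. The interval of this median over the genes, −0.15 to 0.65, spanned 0. The same genes had medians of 0.23 in Kupffer-marked barcodes and 0.62 in all kept barcodes outside the rule. Lpl, lipoprotein lipase, which endothelium binds but macrophages and parenchymal cells mainly make, was at 37.6 CPM in the WT members against 201 CPM in those of N-LKO (log2 ratio 2.42, 2.16 to 2.70), and at 23.2 and 106 CPM (2.18) in members poor in other-cell RNA. Angptl4, an inhibitor of that lipase, was at 7.87 and 23.6 CPM (1.56, 0.98 to 2.24). Pparg, the nuclear receptor of fatty acid storage and a regulator of capillary lipid uptake, was at 42.0 and 101 CPM (1.26, 1.0 to 1.54), and Abca1, the cholesterol exporter gene, at 181 and 404 CPM (1.16, 1.03 to 1.29). Gpihbp1, the endothelial anchor of lipoprotein lipase, stood apart at 270.3 and 199 CPM (−0.44, −0.57 to −0.31), and the fatty acid translocase gene Cd36 at 501 and 698 CPM (0.48, 0.40 to 0.56), both within the limit.

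Antigen presentation genes divided by class. 7 of the 18 genes tested were higher and 0 lower in N-LKO, with a median log2 ratio of 0.19. The MHC class II genes were higher, with Cd74, the invariant chain, at 355 and 938 CPM (1.40, 1.31 to 1.49) and H2-Aa at 173 and 410.1 CPM (1.25, 1.11 to 1.38), as was the costimulatory gene Cd86 at 23.9 and 58.7 CPM (1.29, 0.94 to 1.66). Class I genes lay within the limit, such as H2-K1 at 677 and 595 CPM (−0.19, −0.26 to −0.11) and B2m at 1365 and 1080.1 CPM (−0.34, −0.39 to −0.28). Macrophages, dendritic cells and B cells express class II at high levels, and in members poor in other-cell RNA Cd74 was at 175 and 445 CPM (1.35), H2-Aa at 82.9 and 188 CPM (1.18) and Cd86 at 16.2 and 35.6 CPM (1.13). The levels were thus lower in these members of both libraries while Cd74 and H2-Aa stayed higher in N-LKO. Free-RNA subtraction turned the median of the list to −0.19.

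Of 24 interferon-stimulated genes tested, 2 were higher and 4 lower, the latter close to the 13.7% of all genes, with a median log2 ratio of −0.29. Iigp1, an interferon-inducible GTPase gene, was at 307 and 178 CPM (−0.79, −0.92 to −0.66), and Ifitm2, an antiviral membrane protein gene, at 644 and 417 CPM (−0.63, −0.71 to −0.54). Ifi27l2a was at 65.6 and 135 CPM (1.04, 0.83 to 1.27). Ifit1 and Rsad2, typical targets of type I interferon, were at 22.2 and 16.3 CPM (−0.45, −0.90 to 0.02) and 44.3 and 41.3 CPM (−0.10, −0.40 to 0.21). Ifitm2 reached 0.055 in barcodes of at least 2000 UMIs.

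In endocytosis, the sinusoidal recycling gene Ehd3 and its relative Ehd1 went opposite ways, Ehd1 standing at 14.3 and 27.8 CPM (0.95, 0.49 to 1.46). Of 26 genes tested, 3 were higher and 2 lower, with a median log2 ratio of −0.07. Cd63, a tetraspanin of late endosomes and lysosomes, was at 14.3 CPM in the WT members against 94.5 CPM in those of N-LKO (log2 ratio 2.71, 2.30 to 3.18), and at 12.2 and 75.5 CPM (2.62) in members poor in other-cell RNA. Cltb, a clathrin light chain gene, was at 49.9 and 22.5 CPM (−1.15, −1.49 to −0.81), and the clathrin heavy chain gene Cltc at 369.7 and 324 CPM (−0.19, −0.30 to −0.09). The caveolin gene Cav1 was at 12.5 and 17.0 CPM (0.43, −0.10 to 1.0).

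Proliferation genes gave 1 higher and 1 lower of 12 tested. Mki67 and Top2a, markers of cycling cells, were at 22.5 and 27.4 CPM (0.28, −0.12 to 0.70) and 41.4 and 44.4 CPM (0.10, −0.20 to 0.41), and Cdkn1a, the cell cycle inhibitor p21, was at 35.3 and 93.6 CPM (1.40, 1.12 to 1.71). Immediate early and heat shock genes held 5 higher and 0 lower of 18 tested, with a median log2 ratio of 0.28. Among them Fosb was at 7.58 and 24.3 CPM (1.66, 1.07 to 2.35) and Atf3, a stress-induced factor gene, at 27.7 and 58.3 CPM (1.07, 0.74 to 1.42), while Jun was at 132 and 123 CPM (−0.10, −0.27 to 0.08) and Hspa8 at 570.3 and 596 CPM (0.06, −0.02 to 0.15). These 18 genes respond to tissue dissociation, and the difference did not extend to all of them.

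Nuclear genes of the respiratory chain were lower in 40 of 42 tested, with a median log2 ratio of −1.14. The shift was not particular to the members. Medians of these genes were −0.83 in Kupffer-marked, −1.18 in stellate-marked and −1.14 in Skap1-marked barcodes, and −0.83 in all kept barcodes outside the rule. The transcripts of this list were at or near the free-RNA level in WT members, summing to 16412 CPM against 17816 CPM estimated as free RNA. The median turned to 4.96 after subtraction, but that value reflects the minimum of 3 UMIs set there and gives no ratio of levels. The 13 mitochondrially encoded genes had a median of 0.28, with 0 past the fold in either direction, and −1.59 after subtraction. In the dolichol list, Dpm1 and Dpm3, subunits of dolichol phosphate mannose synthase, were at 62.1 and 41.0 CPM (−0.60, −0.88 to −0.32) and 79.9 and 47.5 CPM (−0.75, −1.0 to −0.50). Dhdds, the catalytic partner of Nus1, was at 19.0 and 21.9 CPM (0.21, −0.24 to 0.67), and the remaining genes of that list lay within the limit.

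Across all genes, 12 were named for each direction by size of ratio, out of 812 that qualified on the higher and 105 on the lower side. To qualify, a gene needed a mean of at least 20 CPM and a level over free RNA in the library where it was higher. A gene under 20 CPM in 1 library could reach that mean only through the other, so the filter set its direction. Of the higher genes only Ighm, at 20.7 CPM, was over 20 CPM in WT. On the lower side Sema3d and Phactr1, for example, were under it in N-LKO. Direction in such genes is a description only. The lower genes were led by Cyp26b1 and Ehd3. Cyp26b1 stood at 322 CPM in the WT members against 81.0 CPM in those of N-LKO (log2 ratio −1.99, −2.15 to −1.83). Sema3d, a secreted semaphorin gene, was at 30.3 and 10.1 CPM (−1.59, −2.09 to −1.11), Phactr1, an actin and phosphatase regulator gene, at 35.6 and 12.8 CPM (−1.47, −1.92 to −1.04), and the autophagy-linked gene Depp1 at 90.7 and 33.1 CPM (−1.45, −1.73 to −1.19). Pla2r1, the phospholipase A2 receptor gene, was at 84.6 and 33.6 CPM (−1.33, −1.60 to −1.06), and Car8, a carbonic anhydrase relative, at 202 and 84.7 CPM (−1.25, −1.43 to −1.08). Pgm5, Cdh13, Plppr5, Mir100hg and Cnr2, the cannabinoid receptor 2 gene, completed the set at log2 ratios from −1.26 to −1.18 for Cdh13, Plppr5, Mir100hg and Cnr2, and −1.31 for Pgm5. At equal depth Cyp26b1 was detected in 24.8% and 8.32% of WT and N-LKO members and in 1.53% and 0.536% of Kupffer-marked barcodes.

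On the higher side stood genes of other kinds. Iglc1 and Ighm, an immunoglobulin light and a heavy chain gene of B and plasma cells, were at 1.75 and 87.2 CPM (5.53, 4.51 to 7.09) and 20.7 and 165 CPM (2.98, 2.64 to 3.36), and in members poor in other-cell RNA at 1.10 and 10.2 CPM (3.00, 1.52 to 5.56) and 12.2 and 36.2 CPM (1.56). Trem2, a receptor of lipid-laden macrophages, was at 5.25 and 36.8 CPM (2.77, 2.11 to 3.59) and then at 2.95 and 8.13 CPM (1.41). Iglc1 was detected in only 0.206% and 1.44% of WT and N-LKO members, and its interval does not cover UMIs bunched in few barcodes. The others were Pdzrn3, a ubiquitin ligase gene, at 5.25 and 54.1 CPM (3.33, 2.68 to 4.14), Cacna2d1, a calcium channel subunit gene, at 4.37 and 43.3 CPM (3.26, 2.56 to 4.17), Eda, the ectodysplasin ligand gene, at 14.3 and 129 CPM (3.17, 2.76 to 3.63), and Slc15a2, a peptide transporter gene, at 4.96 and 45.0 CPM (3.14, 2.47 to 3.98). Cfap69, D5Ertd615e, Rims2, Slc7a11 (the cystine transporter gene) and Grip1 had log2 ratios from 2.83 to 2.95. Eda remained at 15.5 and 149 CPM (3.25) in members poor in other-cell RNA.

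**Figure D4:**
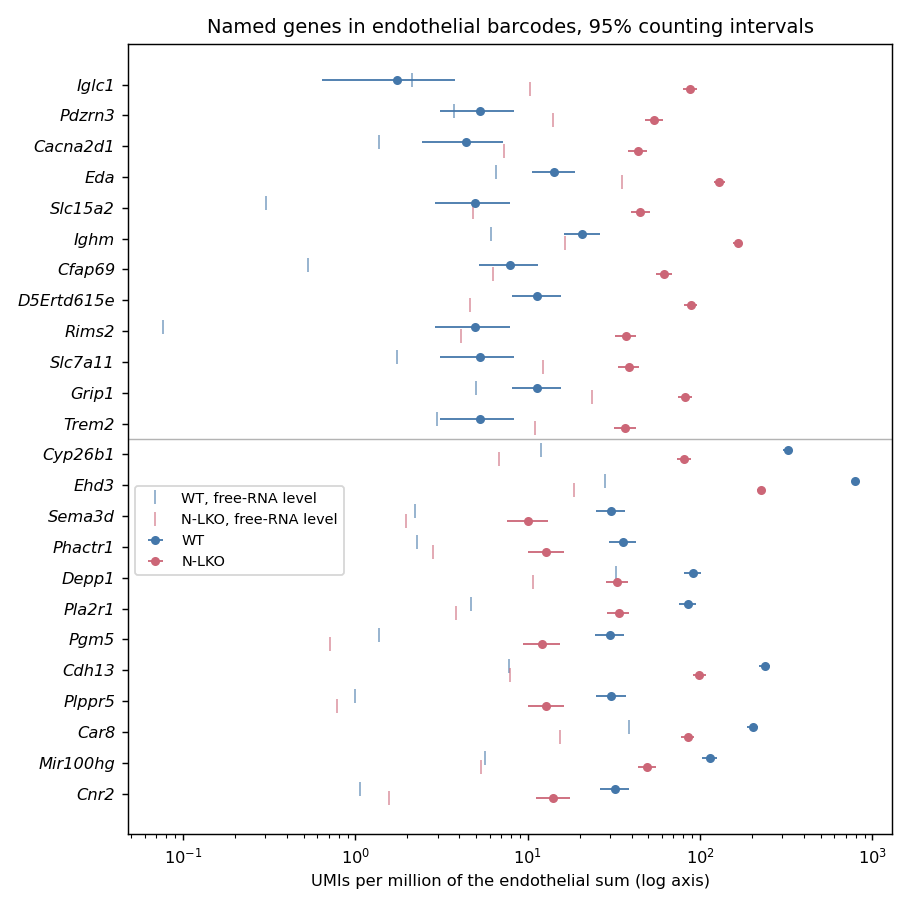
Levels in CPM (logarithmic axis) of the 24 named genes in WT and N-LKO members, with 95% Poisson intervals and a tick at the estimated free-RNA level of each library where it is above 0. Cyp26b1 and Ehd3 lie well over free RNA in both libraries, while Iglc1 rests on 6 UMIs in WT.

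The named genes were also read in another cell class, the Kupffer-marked barcodes, 1701 in WT and 2800 in N-LKO. Of the 12 higher genes 8 reached a mean of 10 CPM there, and all 8 were higher by the same call, against 9.28% of the 8736 genes tested in that class. A gene under 10 CPM in WT, such as Pdzrn3, could reach that mean only through N-LKO. For such genes the filter itself set the direction, so the count is a description only. Of the 12 lower genes 6 reached that mean and 5 were lower, against 11.6%, and Cyp26b1 reached it only through WT. Eda stood there at 10.3 and 66.8 CPM (2.68) and Pdzrn3 at 4.56 and 29.8 CPM (2.66). Ehd3 was at 39.9 and 19.3 CPM (−1.05) and Cyp26b1 at 17.5 and 4.87 CPM (−1.83) in Kupffer-marked barcodes, where their levels were a small part of the endothelial ones. The longest of the 5 span bins held 7 of the 12 higher and 8 of the 12 lower genes.

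**Figure D5:**
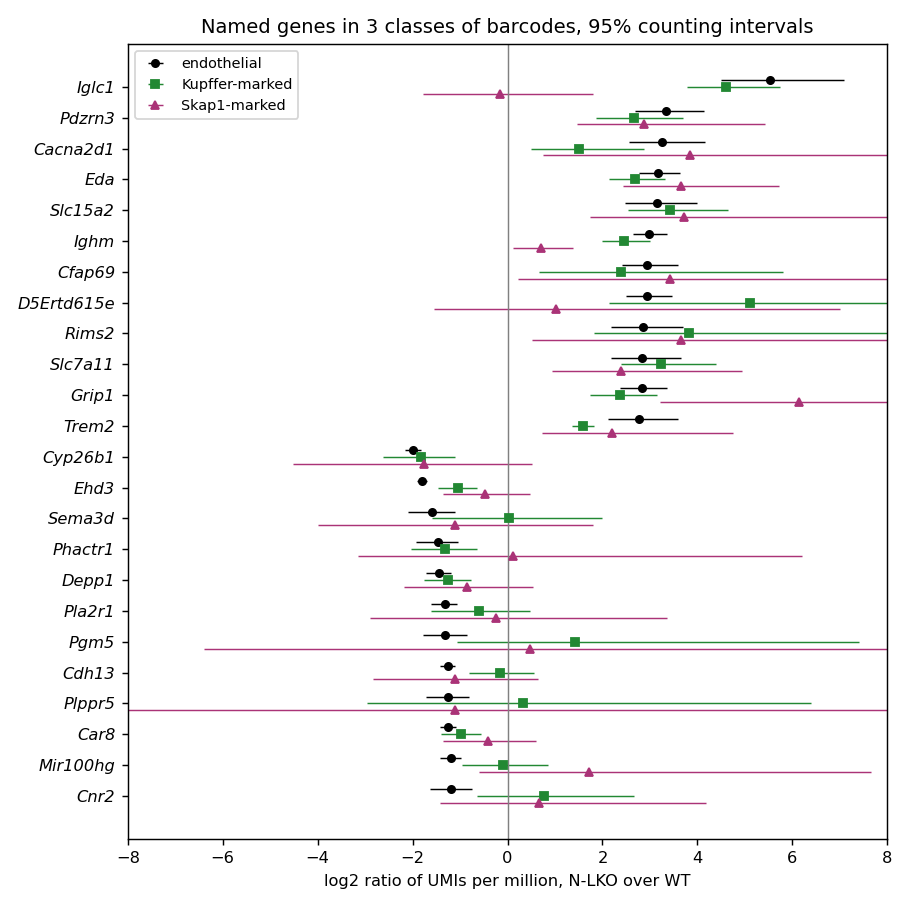
Log2 ratio of N-LKO over WT (horizontal axis) of the 24 named genes in endothelial members, Kupffer-marked and Skap1-marked barcodes, with 95% intervals that are cut at 8 on either side where they run past the axis. For the higher genes the endothelial and Kupffer-marked points lie on the same side of 0, with Eda at 3.17 in endothelial members.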

How the data were processed

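The deposited matrices hold UMI counts per gene and barcode, made by the authors with Cell Ranger (7.1.0 per the file headers) from 10x 3′ libraries. The submitters' processing notes name mm9, whereas the feature identifiers follow GRCm38, so coordinates and spans were taken from GENCODE vM21 and promoters from RefSeq GRCm38.p6. Both matrices list 32285 genes, for 100171 (WT) and 90147 (N-LKO) barcodes, more than the study analysed. Member UMIs were summed to 3429779 (WT) and 5469026 (N-LKO), and 3 UMIs, the most that a count of 0 allows, equal 0.875 and 0.549 CPM.

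Log2 ratios used a pseudocount of 0.5 UMIs. Ratio intervals were exact conditional binomial, level intervals Poisson and shares Clopper-Pearson, all at 95% and for counting error only. Level and ratio intervals take UMIs as independent, so they are too narrow where UMIs are bunched in few barcodes, as for immunoglobulin genes. Free RNA was the profile of barcodes under 500 UMIs scaled to the share of it that 20 hepatocyte markers gave. Sums that its subtraction left under 3 UMIs were set to 3, so large ratios after it depend on that minimum. The step that forms ratios was run on simulated data with independent UMIs. That setting cannot show how the intervals behave where UMIs are bunched or the background differs, as in these libraries. Scrublet scores were computed but doublets were kept, and their removal was an alternative. Named genes were the 12 largest ratios in each direction among genes with a mean of at least 20 CPM, without mt- and unnamed genes. Their level in the library where they were higher was at least 1.5 times that of its low barcodes. Up to 3 genes per side of each list were added. The members and the gene lists were chosen with earlier results of these data known. The alternatives varied the rule, the mt- limit, depth, free RNA, scaling, the CPM minimum and the fold, and leaving out members with more than 1 UMI of other cell types was added after seeing the data. Analyses ran in Python 3.11.15 with scanpy 1.11.5 and scipy 1.17.1, on numpy 2.4.6 and pandas 2.3.3, and plots in matplotlib 3.10.9.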

Additional observations from a re-analysis of the deposited data

Results flagged for a closer look

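Only the 103 single genes that were named and called in endothelial members were searched here, where their mean in the other class reached 10 CPM. In 5 of them the ratio of N-LKO over WT had the opposite sign in another cell class, both past 1.5-fold. The difference between the classes was not tested. Nrp1 was at a log2 ratio of −0.68 in endothelial members and 0.88 in Skap1-marked barcodes, from 65.6 to 122 CPM. F8 was at −0.67 in endothelial members, against 1.22 (16.4 to 40.4 CPM) in Skap1-marked and 1.44 (18.6 to 54.1 CPM) in stellate-marked barcodes, both from levels far under the 725 CPM of WT endothelial members. Hgf was at 0.85 in endothelial members and −0.63 in stellate-marked barcodes, where it went from 846 to 548 CPM. Ifi27l2a was at 1.04 against −0.60 in stellate-marked barcodes, and Ednrb at 1.61 against −1.57 (294 to 98.0 CPM). Stellate-marked barcodes were few, 182 in WT and 181 in N-LKO.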

How the results depend on the processing

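No paired analysis was possible because each group has 1 library and only replicate number 1 is shared. Leaving out possible doublets or shared barcode sequences and a total without mt- genes and hepatocyte markers left the counts, shares and list medians within 1.5 times or their spread. Centring on the median ratio gave 1245 genes higher and 1504 lower, turning the order of the sides, and a minimum of 2 CPM gave 2249 and 1522 of 13102 genes tested. Over 103 single genes and 18 alternatives, 1593 of 1790 values kept direction and call, 184 lost the call and 13 turned. Of these values, 103 at a minimum of 2 CPM and 57 at 50 CPM could not change, since the minimum leaves ratio and interval as they are. The 2-fold limit could not turn a direction. All alternatives drew on the same 2 libraries and on genes chosen because they were called, so the values are not independent checks.

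Member counts in WT were 581 with mt- UMIs at most 10%, 229 at 2000 UMIs or more and 598 without a Stab2 UMI. In N-LKO they were 339, 591 and 991 in those subsets, 2100 at a marker sum of at least 5, 2290 with no UMI of the excluded genes and 2009 with at most 1 UMI of other cell types. Genes higher numbered 526 at a minimum of 50 CPM and 606 at 2-fold, and genes lower 598 and 521.

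With mt- UMIs at most 10%, medians were −0.64 for pan-endothelial, −0.66 for sinusoidal, −0.50 for periportal, −0.45 for VEGF, −0.57 for interferon, −0.16 for proliferation and 0.025 for mitochondrially encoded genes. At 2000 UMIs or more they were 0.27 for pan-endothelial, 0.61 for flow, −0.90 for respiratory chain and 0.017 for mitochondrially encoded genes.

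Free-RNA subtraction, which by construction lowers the ratio of genes without free RNA, gave −0.66 for pan-endothelial, −0.86 for sinusoidal, −0.17 for vascular, −0.48 for periportal, −0.51 for VEGF, −0.18 for matrix, −0.19 for antigen presentation, −0.56 for interferon and −0.35 for proliferation genes. It turned flow to −0.14, leukocyte adhesion to −0.24, the respiratory chain to 4.96 and mitochondrially encoded genes to −1.59, while the vascular, periportal, VEGF, matrix, antigen presentation and proliferation medians above, and those of the BMP (−0.25), Wnt (−0.41), chemokine (−0.08) and coagulation lists (−0.07), went from above to below 0 with it. Proliferation was at 0.43 with a marker sum of at least 2 and 0.30 without a Stab2 UMI, and mitochondrially encoded genes at 0.34 after thinning and 0.33 as a mean over cells.

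The pericentral share in WT was 11.7% with a marker sum of at least 2, 11% with and 20.2% without a Stab2 UMI, and 11.3% after thinning. In N-LKO it was 9.14% with mt- UMIs at most 10%, 4.63% with and 11.5% without a Stab2 UMI, 5.72% with at most 1 UMI of other cell types and 4.87% after thinning. The periportal share in WT was 31.8% and 42.7% with a marker sum of at least 2 and 5, 35.4% at 2000 UMIs or more, 36.1% without a Stab2 UMI and 31.1% after thinning, and in N-LKO 38.1%, 46.7%, 44.8%, 44.3% and 30.5% in the same order and 39.5% with mt- UMIs at most 10%.

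Single genes that turned were Lyve1 (−0.23) and Angpt2 (−0.21) with mt- UMIs at most 10%, Pcdh7 (−0.051) and Angpt2 (−0.28) without a Stab2 UMI, Ifitm2 (0.055) and Mcm3 (0.49) at 2000 UMIs or more, and, after free-RNA subtraction, Pcdh7 (−0.21), Cxcl12 (2.84), S100a10 (0.34), Cox4i1 (7.23), Uqcrq (5.61), Cox7b (5.26) and Ndufc1 (4.90). The cause of these moves was not tested, and the large ratios after subtraction depend on the minimum of 3 UMIs set there. At a median of 1245 and 1383 UMIs per member, genes with a mean under 10 CPM over both libraries were not compared, and 1 library per group leaves the spread between mice unmeasured.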
